A study of Mus musculus with 6 samples.

Results

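Mecom encodes a zinc finger transcription factor that blood stem cells need to renew themselves. It belongs to the PRDM family, whose proteins carry a PR domain, a relative of the SET domain of histone methyltransferases, usually followed by zinc fingers that bind DNA. Prdm16 is its closest relative in the family, is also needed to maintain blood stem cells, and shares partners such as the corepressor CtBP. Both loci make a long protein with the PR domain and a short one without it, and the short Mecom product is known as EVI1. In people, variants in the zinc fingers of MECOM cause a syndrome of forearm fusion with marrow failure.

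The genes described here are Mecom and its relatives Prdm16, Prdm2, Prdm4, Prdm9, Prdm10, Prdm11 and Prdm15. They were chosen by symbol, and all 8 were among the 18465 genes of the deposited table. Among further family symbols that were searched, Zfp408 had a row, and Prdm1, Prdm6, Prdm8, Prdm12, Prdm13 and Prdm14 had none. Expression was measured by RNA sequencing in SLAM-LSK cells sorted from bone marrow of C57BL/6 mice. These cells carry CD150, Sca-1 and c-Kit, lack CD48 and lineage markers, and are enriched for stem cells. There were 3 libraries from MecomWT:R751W mice, which have 1 wild-type Mecom allele and 1 allele with the R751W substitution, and 3 libraries from wild-type (WT) mice. The labels call the libraries biological replicates without saying that each is a separate mouse, and they give no ages, so the p-values measure the spread between these libraries, which may be technical.

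The 6 libraries held 10427533 to 12378149 reads, as implied by the deposited values. These are TPM, in which reads are set against the length of the gene and every library adds up to an equal sum. Protein-coding genes took 26.0% of TPM in replicate 2 of MecomWT:R751W and 25.9% in replicate 2 of WT, and 28.9% to 30.1% in the other 4 libraries. All 10 stem cell and SLAM-LSK markers searched were present. Kit was at 137 to 168 TPM in MecomWT:R751W and 162 to 198 TPM in WT. Slamf1, which encodes CD150, was at 12.2 to 16.5 TPM in MecomWT:R751W and 9.5 to 12.8 TPM in WT. Both overlapped between the groups. Of the 10 markers, 1 lay wholly higher in MecomWT:R751W and 2 wholly lower, beside 4.5% and 4.7% of all genes tested. Of 7 genes of mature lineages, 6 had no row, and Itgam was at 2.33 to 4.3 TPM in MecomWT:R751W and 2.64 to 8.11 TPM in WT. Of the summed markers of other blood cells, those of CD48-positive progenitors and erythroid cells lay above the whole WT range in all 3 MecomWT:R751W libraries, and those of megakaryocytes overlapped. The summed level of 4 genes of CD48-positive progenitors was 55.2 to 70.8 TPM in MecomWT:R751W and 46.5 to 49.1 TPM in WT. That of 5 erythroid genes was 14.9 to 26.0 TPM in MecomWT:R751W and 8.73 to 13.7 TPM in WT. Of these 5, 2 lay wholly higher in MecomWT:R751W by themselves, while the globin genes Hba-a1, Hbb-bs and Hbb-bt overlapped. Most of the difference in the CD48-positive list lay in Flt3, a cytokine receptor gene that limma-voom called. It was at 20.4 to 24.1 TPM in MecomWT:R751W and 9.3 to 13.0 TPM in WT, while Cd27 overlapped. Cd48 itself was also wholly higher in MecomWT:R751W, at 2.27 to 4.1 TPM against 1.02 to 2.18 TPM in WT. So was Dntt, at 0.943 to 2.28 TPM in MecomWT:R751W against 0.164 to 0.4 TPM in WT. Cd48 and Dntt were both at low levels. The 5 megakaryocyte genes summed to 110 to 163 TPM in MecomWT:R751W and 123 to 145 TPM in WT. Of the endothelial markers, in a cell type that also uses Mecom, Cdh5 and Flt4 had no row, and the other 5 summed to 41.9 to 57.4 TPM in MecomWT:R751W and 41.0 to 53.7 TPM in WT, nearly all of it Pecam1 and Egfl7. The part of these cells in the results below was not tested, and in bulk RNA fewer cells of a type and less RNA per cell cannot be told apart.

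Mecom lies on the minus strand of chromosome 3 (29951296 to 30509759, GRCm38) and Prdm16 on the minus strand of chromosome 4 (154316122 to 154637360). RefSeq gives Mecom a start for the long form and, 496555 bases further along the gene, one for the short form. The table has 1 row for the gene, so transcripts from both starts are added together in every Mecom value below. The windows around these starts and around the start of Prdm16 are shown so that the paralogs and the Mecom forms can be compared there. Each runs from 250 bases before the start to 50 after it, on the minus strand of GRCm38.p6 (RefSeq), at chr3:30509710-30510009, chr3:30013155-30013454 and chr4:154636824-154637123.
Mecom long form: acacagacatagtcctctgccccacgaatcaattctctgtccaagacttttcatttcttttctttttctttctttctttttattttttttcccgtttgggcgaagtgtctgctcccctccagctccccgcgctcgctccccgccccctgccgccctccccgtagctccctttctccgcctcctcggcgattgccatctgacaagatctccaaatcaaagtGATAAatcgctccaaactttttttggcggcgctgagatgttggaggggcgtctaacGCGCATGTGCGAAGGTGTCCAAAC
Mecom short form: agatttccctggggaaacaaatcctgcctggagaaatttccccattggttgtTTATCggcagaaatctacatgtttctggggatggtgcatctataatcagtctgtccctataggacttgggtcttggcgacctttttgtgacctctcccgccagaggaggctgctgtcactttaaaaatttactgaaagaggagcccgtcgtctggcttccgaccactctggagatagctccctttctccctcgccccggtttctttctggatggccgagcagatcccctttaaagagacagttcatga
Prdm16: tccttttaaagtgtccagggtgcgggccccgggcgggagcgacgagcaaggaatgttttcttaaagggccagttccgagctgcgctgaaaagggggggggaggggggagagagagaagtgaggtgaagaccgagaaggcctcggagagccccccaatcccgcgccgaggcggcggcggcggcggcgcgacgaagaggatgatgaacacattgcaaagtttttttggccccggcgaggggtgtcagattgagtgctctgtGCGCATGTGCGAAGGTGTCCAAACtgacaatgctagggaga
The long runs of capitals mark the longest stretch shared by the long-form window of Mecom and the window of Prdm16. It is 24 bases long, begins at base 27 of the transcribed strand in Mecom and base 10 in Prdm16, counted from the start as base 1, and reaches the edge of the Mecom window. Of 32851 RefSeq windows of the same length, 2 hold it on either strand, these being the windows of Mecom and Prdm16. The short-form window shares no run longer than 7 bases with that of Prdm16. With the long-form window it shares a run of 15 bases, which is not marked. The short capitals mark GATAA, the core of the motif of GATA factors, or its reverse complement TTATC, which was searched on both strands because the series title names GATA2 as a competitor of MECOM. It stands 1 time in each Mecom window and in 0 positions of the Prdm16 window, and 25.4% of all windows hold it, so its presence is a description of these letters and not of binding.

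Mecom was by far the most abundant of the 8 genes, and it was the highest in all 6 libraries. It had 50.9, 39.95 and 44.0 TPM in MecomWT:R751W replicates 1, 2 and 3, against 42.9, 34.9 and 36.9 TPM in WT replicates 1, 2 and 3. This places it between percentiles 87.3 and 91.7 of protein-coding rows within a library. Mecom made up 42.4% to 45.9% of the summed TPM of the 8 genes in MecomWT:R751W libraries and 36.3% to 40.1% in WT libraries. These are 2807 to 3626 implied reads per library, the deepest measurement in the family.

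Prdm16, the other stem cell regulator of the family, was lower than Mecom by a factor of 2.16 to 3.9 within a library. It had 13.8, 10.3 and 13.8 TPM in MecomWT:R751W replicates 1, 2 and 3, against 14.1, 13.0 and 17.0 TPM in WT replicates 1, 2 and 3. The groups overlap, and WT replicate 3 is the highest. Prdm2, also called RIZ, a tumour suppressor with methyltransferase activity towards lysine 9 of histone H3, had 14.1, 12.9 and 15.2 TPM in MecomWT:R751W and 14.4, 13.6 and 15.9 TPM in WT. Prdm4, which recruits the arginine methyltransferase PRMT5, had 13.8, 10.3 and 12.3 TPM in MecomWT:R751W and 16.2, 12.9 and 12.3 TPM in WT. Prdm2, Prdm16 and Prdm4 are neighbours in the order of levels with overlapping ranges. Prdm2 was above Prdm16 in 5 of 6 libraries and Prdm16 above Prdm4 in 4 of 6, so their order is not resolved.

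The other 4 genes were lower. Prdm15, a regulator of pluripotency in mouse embryonic stem cells, had 8.05, 6.14 and 8.41 TPM in MecomWT:R751W libraries and 7.92, 6.48 and 7.26 TPM in WT libraries. Prdm11, whose loss has been linked to faster lymphoma in mice, had 5.45, 4.995 and 4.74 TPM in MecomWT:R751W and 5.67, 5.61 and 6.23 TPM in WT. Prdm15 was above Prdm11 in all 6 libraries, though their ranges over libraries touch. Prdm10, which mouse embryos need early in development, was at 2.23 to 2.81 TPM in MecomWT:R751W and 2.48 to 3.05 TPM in WT. Prdm9, the methyltransferase that marks recombination sites in meiotic germ cells, was at 2.07, 1.48 and 2.88 TPM in MecomWT:R751W replicates 1, 2 and 3 and at 3.24, 1.95 and 2.82 TPM in WT replicates 1, 2 and 3. Prdm10 and Prdm9 are not separated, as Prdm10 was above Prdm9 in 4 of 6 libraries. Of 4 germ cell markers, Dazl, Sycp3 and Stra8 had no row, and Ddx4 was at 0.98 to 1.12 TPM in MecomWT:R751W and 1.28 to 1.85 TPM in WT. The part of germ cell RNA in the Prdm9 values was not tested.

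**Figure D1:**
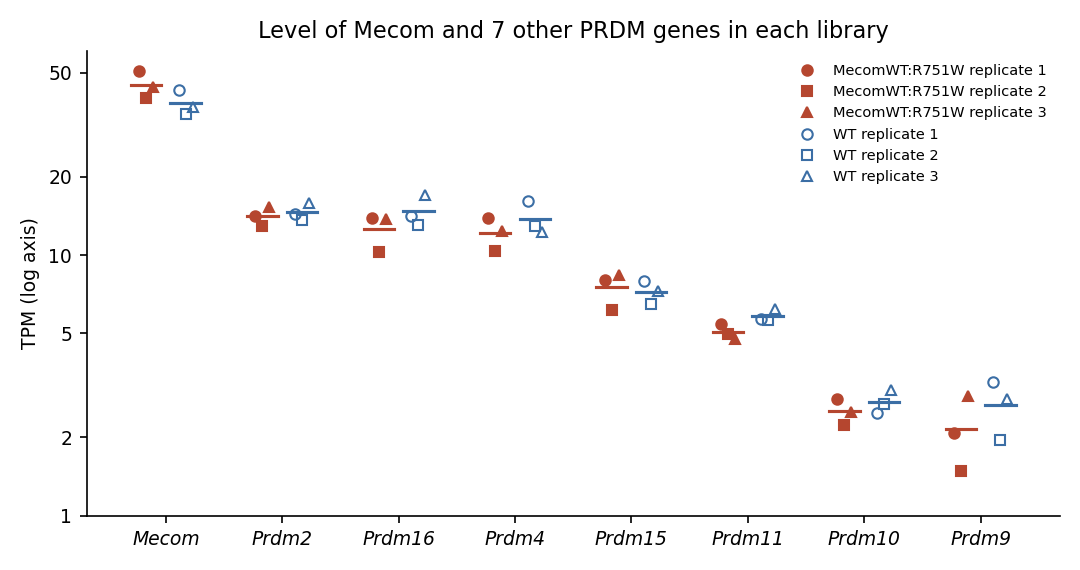
TPM on a log axis of Mecom and 7 other PRDM genes, in order of their mean, with 1 symbol per library (filled for MecomWT:R751W, open for WT) and a bar at the mean of 3 libraries. Mecom sits at 34.9 to 50.9 TPM, above every value of the other genes, and Prdm11 is the gene whose groups do not overlap.

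These levels depend on the length assigned to each gene. The implied length was 9798 bases for Mecom and 9522 for Prdm16, so their TPM and their reads give nearly the same picture. It was 23201 bases for Prdm10 and 17488 for Prdm11, against 4194 for Prdm4. Prdm11 had 4566 reads over the 6 libraries together and Prdm4 had 2593, yet per length Prdm4 was the higher in every library. Prdm9 rested on the fewest reads, 75 to 155 per library, and its zinc finger repeats resemble those of other genes, so reads shared with them could be counted differently by other tools.

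The family had different amounts of spread within a genotype. Read counting alone would give an SD of 0.025 on the log2 scale for Mecom and 0.13 for Prdm9, while the SD between libraries of 1 genotype was 0.17 for Mecom and 0.43 for Prdm9 on log2 TPM. The value was 0.22 for Prdm16, 0.21 for Prdm4, 0.20 for Prdm15, 0.16 for Prdm10, 0.12 for Prdm2 and 0.093 for Prdm11. Among coding genes that averaged 5 TPM or more the median was 0.177, so Mecom, Prdm2 and Prdm11 lay below that median. Prdm10 averaged 2.62 TPM and Prdm9 2.4 TPM, so they fall outside the genes behind this median. For all 8 genes the spread between libraries exceeded the counting error.

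**Figure D2:**
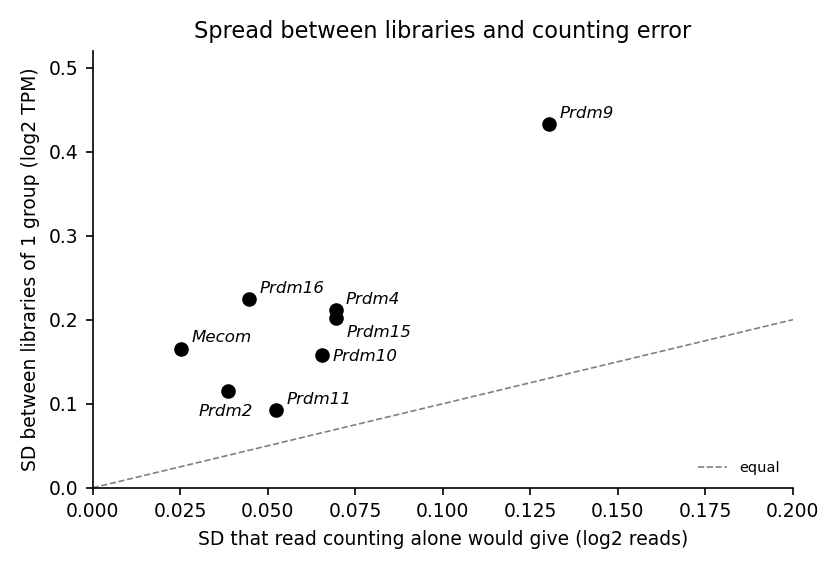
SD between libraries of the same genotype on log2 TPM (y axis) against the SD that counting reads alone would give (x axis), with 1 point per gene and a dashed line where both are equal. All 8 points lie above the line, with Mecom at 0.17 over a counting error of 0.025.

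Many of the genes were lowest in the same library. MecomWT:R751W replicate 2 held the lowest value of 6 of the 8 genes, Prdm16, Prdm2, Prdm4, Prdm9, Prdm10 and Prdm15. It also held the lowest value of 39.5% of 11394 protein-coding genes, and WT replicate 2 that of 35.0%, against 5.43% to 7.29% in each of the other 4 libraries. These are the 2 libraries with the smallest coding share of TPM. The part of the coding share in the differences between libraries was not tested for each gene, and levels were also computed after the coding rows of each library were rescaled to an equal total. The rescaled values of single libraries were read after the deposited ones had been seen.

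The comparison of MecomWT:R751W with WT asks whether 1 altered Mecom allele changes expression of the gene itself or of its relatives. By limma across all genes, with adjustment by the Benjamini-Hochberg method, 0 of 8 genes passed a threshold of 0.05, where 0% of 16655 genes passed in either direction. At an unadjusted p under 0.05 there were also 0 of 8, where 5.97% of all genes passed, and limma-voom on the implied reads called 0 of 8, where it called 0.3% of all genes. Log2 fold changes, on log2(TPM + 1), ran from -0.23 to 0.23. The added 1 makes changes of low genes look smaller. Mecom and Prdm15 were above 0, as were 49% of all genes, and the other 6 genes were below it. The median of the 8 was -0.129, beside -0.0037 for all genes tested.

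Mecom averaged 45.0 ± 5.53 TPM in MecomWT:R751W and 38.2 ± 4.17 TPM in WT (SD, n = 3 each). Its log2 fold change of 0.23 (SE 0.14) had a 95% interval of -0.07 to 0.53 and an adjusted p of 0.958 by limma. Changes of at least this size upward were found in 10.7% of genes. The groups overlap because MecomWT:R751W replicate 2 lies below WT replicate 1. The exact two-sided permutation p was 0.2, where 3 libraries against 3 cannot go below 0.1.

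After rescaling over the coding rows the order of the Mecom values changed. It stood at 171, 153.5 and 152 rescaled TPM in MecomWT:R751W replicates 1, 2 and 3, against 142, 135 and 128 in WT replicates 1, 2 and 3. All 3 MecomWT:R751W libraries are then above all 3 WT libraries, as was the case for 7.53% of 12394 genes tested on this scale, where 8.63% lay wholly lower. The log2 fold change was 0.24 (SE 0.08), with an adjusted p of 0.285 by limma. Its unadjusted limma p was 0.0129, and 11% of genes had one under 0.05 on this scale, where 0.137% passed the adjusted threshold. The exact permutation p was 0.1, the smallest possible. The fold change was close on both scales, its SE was smaller after rescaling, and it passed the adjusted threshold on neither. Over 17 other settings of the fit, Mecom had an unadjusted p under 0.05 in 5, rescaling among them, and an adjusted p of 0.204 to 1.0. Without MecomWT:R751W replicate 1 its log2 fold change as deposited was 0.137. Limma-voom on the implied reads gave Mecom a log2 fold change of 0.24 with an adjusted p of 0.204. A row for the whole gene does not separate the altered allele from the normal one.

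Prdm16 averaged 12.6 ± 2.05 TPM in MecomWT:R751W and 14.7 ± 2.08 TPM in WT (SD, n = 3 each), a log2 fold change of -0.21 (SE 0.17, adjusted p = 1.0 by limma) with a 95% interval of -0.57 to 0.15. Changes of at least this size downward were found in 13.9% of genes. After rescaling it was at 46.5, 39.4 and 47.7 rescaled TPM in MecomWT:R751W and 46.9, 50.3 and 58.98 in WT. The groups overlap on that scale too, by the first WT replicate alone.

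Prdm11 was the gene whose groups did not overlap as deposited, which holds for 1 of 8 genes and for 9.19% of all genes tested (4.5% higher and 4.7% lower in MecomWT:R751W). It averaged 5.06 ± 0.361 TPM in MecomWT:R751W and 5.84 ± 0.339 TPM in WT (SD, n = 3 each). The log2 fold change of -0.17 (SE 0.16) had an adjusted p of 1.0 by limma. After rescaling the groups overlapped, at 18.4, 19.2 and 16.4 rescaled TPM in MecomWT:R751W and 18.8, 21.7 and 21.6 in WT.

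For the others, limma gave log2 fold changes of -0.05 (SE 0.14) for Prdm2, -0.17 (SE 0.16) for Prdm4, 0.05 (SE 0.17) for Prdm15, -0.09 (SE 0.18) for Prdm10 and -0.23 (SE 0.22) for Prdm9. The 95% interval of Prdm2 was -0.36 to 0.26 and that of Prdm9 was -0.71 to 0.25, and a log2 fold change of 1 in either direction lies outside the interval of each of the 8 genes on this scale. Single libraries moved these values. Over fits without 1 library the log2 fold change ran from -0.259 to -0.056 for Prdm4, from -0.149 to -0.029 for Prdm10 and from -0.396 to -0.073 for Prdm9. For Prdm2 it ran from -0.102 to 0.009 and for Prdm15 from -0.029 to 0.17, across 0. Outside the 8, Zfp408, which encodes PRDM17, was at 4.73 ± 0.181 TPM in MecomWT:R751W and 4.39 ± 0.667 TPM in WT (log2 fold change 0.10, SE 0.17, adjusted p = 1.0 by limma).

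**Figure D3:**
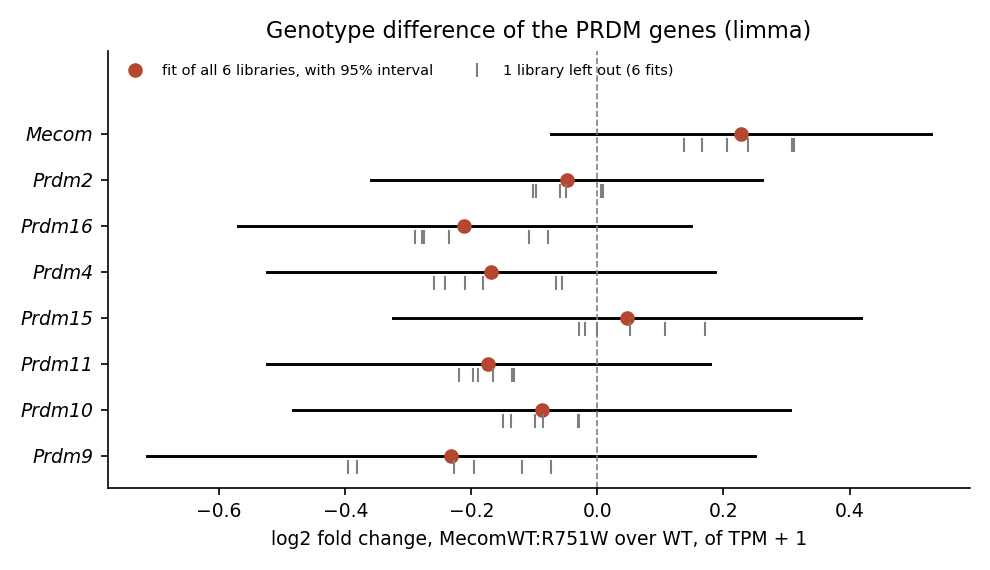
Log2 fold change of TPM + 1, MecomWT:R751W over WT, for the 8 PRDM genes, with points for the fit of all 6 libraries, lines for its 95% interval and grey ticks for the 6 fits that leave out 1 library. Every interval includes 0. Mecom lies at 0.23 with ticks from 0.14 to 0.31, and Prdm16 lies at -0.21 with ticks from -0.29 to -0.08.

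The summed level of the 8 genes was 111.0, 88.3 and 103.9 TPM in MecomWT:R751W replicates 1, 2 and 3 and 106.9, 91.0 and 101.4 TPM in WT replicates 1, 2 and 3. The means of 101.1 ± 11.6 TPM in MecomWT:R751W and 99.8 ± 8.04 TPM in WT (SD, n = 3 each) differed by less than the spread (exact two-sided permutation p = 0.9). Without MecomWT:R751W replicate 1 the difference, 1.29 TPM with all libraries, was -3.68 TPM, and it was -0.121 TPM without MecomWT:R751W replicate 3 and -3.08 TPM without WT replicate 2. Without Mecom, the 7 relatives summed to 56.1 ± 6.71 TPM in MecomWT:R751W and 61.6 ± 4.68 TPM in WT (exact p = 0.3).

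The ratio of Mecom to Prdm16 within a library does not depend on scaling between libraries. It was 3.68, 3.9 and 3.2 in MecomWT:R751W replicates 1, 2 and 3, against 3.04, 2.68 and 2.16 in WT replicates 1, 2 and 3. The groups do not overlap, though MecomWT:R751W replicate 3 and WT replicate 1 lie close to each other. On the log2 scale the means were 1.84 ± 0.147 in MecomWT:R751W and 1.38 ± 0.247 in WT (SD, n = 3 each), a difference of 0.46 with an exact two-sided permutation p of 0.1, the smallest that this design allows. The ratio of Mecom to any other tested gene was wholly higher in MecomWT:R751W for 31.8% of 16644 genes and wholly lower for 0.877%, so a ratio that separates the groups is common for Mecom and is not particular to Prdm16. Within the family, Mecom relative to Prdm4, Prdm11 and Prdm10 also separated the groups, 4 of the 7 ratios in all, while Mecom relative to Prdm2, Prdm15 and Prdm9 did not. Prdm16 relative to Prdm15 was wholly lower in MecomWT:R751W, as was Prdm16 relative to 22.5% of genes tested, and it was wholly higher relative to 0.919%.

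**Figure D4:**
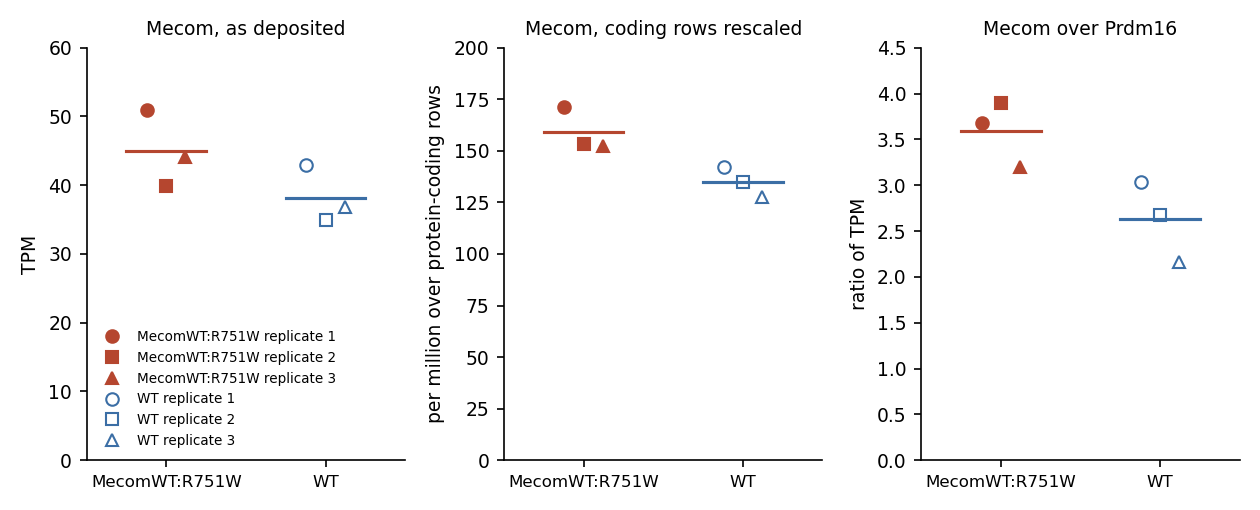
Mecom in each library as deposited (TPM, left), after rescaling over protein-coding rows (rescaled TPM, middle) and as a ratio to Prdm16 (right), with 1 symbol per library and a bar at the mean of 3. The groups overlap at left, where MecomWT:R751W replicate 2 (39.95 TPM) is below WT replicate 1 (42.9 TPM), and do not overlap in the other panels.

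The table holds 3 rows inside Mecom. The long non-coding RNA Mecomos, annotated on the opposite strand of the gene, had 11.7, 4.81 and 8.33 TPM in MecomWT:R751W and 9.19, 7.59 and 6.88 TPM in WT, with 35 to 77 reads per library. Its log2 fold change was -0.002 (SE 0.24). Gm52621 averaged 14.5 ± 5.85 TPM in MecomWT:R751W and 12.2 ± 1.56 TPM in WT, and Gm10258 averaged 3.81 ± 1.1 TPM in MecomWT:R751W and 3.02 ± 0.124 TPM in WT. Prdm16 holds 4 such rows, Gm52688, Gm13133, Gm52689 and 5930403L14Rik, with log2 fold changes of -0.36 to 0.30. No source used here says whether reads were counted by strand, so reads of these rows and of their host genes cannot be told apart with certainty.

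The genes around both loci were read as well. Within 1 Mb of Mecom, 9 of 11 rows were tested and 0 passed by limma, 1 with an unadjusted p under 0.05, with 3 above 0, 6 below and a median of -0.073. That 1 was Skil, which encodes SnoN, an antagonist of SMAD signalling. It had 23.8, 15.3 and 9.89 TPM in MecomWT:R751W against 52.3, 21.7 and 20.4 TPM in WT, where replicate 1 was the highest of its genotype in each group and the groups overlap. Its log2 fold change was -0.85 (SE 0.33, adjusted p = 0.735). The closest coding neighbour, Mynn, a zinc finger gene 92.3 kb away, was at 11.3 ± 0.667 TPM in MecomWT:R751W and 13.6 ± 2.59 TPM in WT (log2 fold change -0.24, SE 0.16). Within 1 Mb of Prdm16, 27 of 31 rows were tested and 0 passed, 2 with an unadjusted p under 0.05, with 11 above 0, 16 below and a median of -0.114. Cdk11b, a cyclin-dependent kinase gene, had the smallest p there, at 68.5 ± 12.7 TPM in MecomWT:R751W and 108 ± 36.2 TPM in WT (log2 fold change -0.62, SE 0.20, adjusted p = 0.602). By library Cdk11b had 82.7, 64.4 and 58.4 TPM in MecomWT:R751W and 149.8, 84.6 and 89.8 TPM in WT, where replicate 1 stands far above the others. The other named rows were Gm52713 at -0.50 and Gm13133 at 0.30. Limma-voom called 0 rows near either gene, where it called 0.3% of all genes. Among all genes tested by limma, 49% were above 0, 5.97% had an unadjusted p under 0.05 and 0% passed the adjusted threshold.

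**Figure D5:**
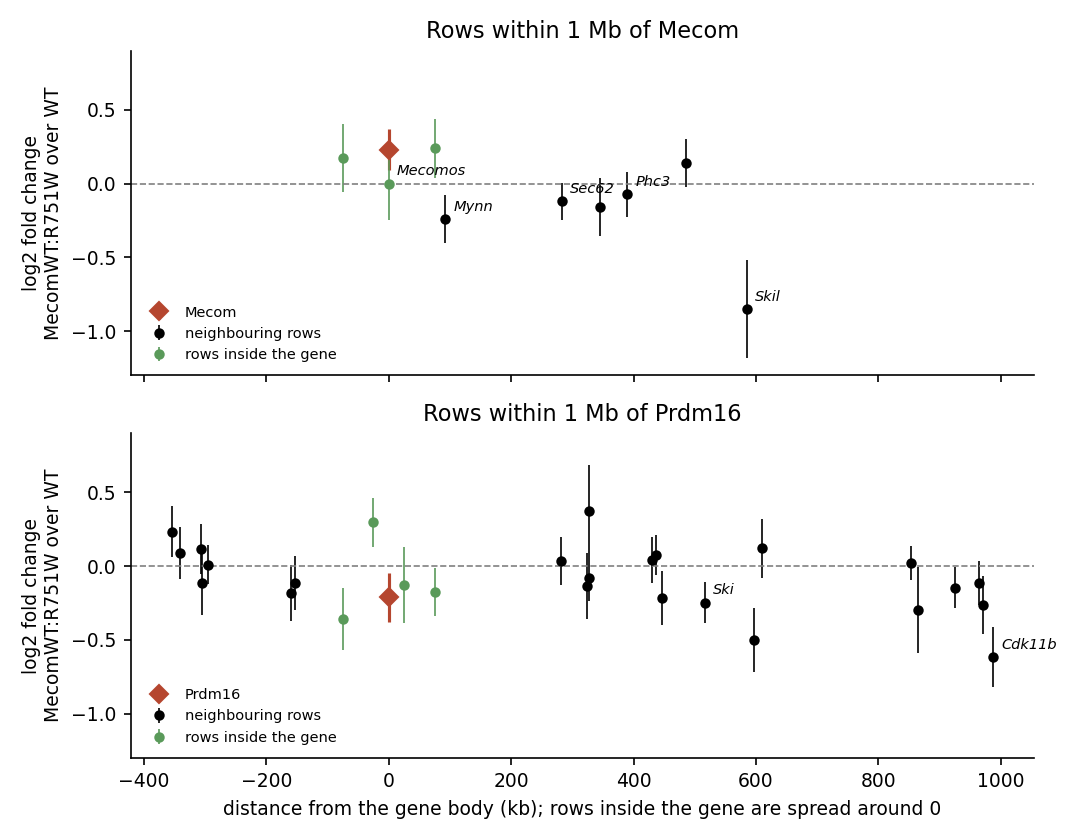
Log2 fold change with its SE, MecomWT:R751W over WT, of rows within 1 Mb of Mecom (above) and Prdm16 (below) against distance from the gene body in kb. Green points are rows inside the gene, set side by side around 0 because they have no distance. Mecom itself (0.23) lies above its coding neighbours, and Skil lies lowest at -0.85.

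Genes linked to MECOM and PRDM16 were described from lists chosen by function, some of which share members such as Cebpb and Gfi1b. Limma and limma-voom called 0 members of any of these 5 lists. Over all genes tested, 49% were above 0, 5.97% had an unadjusted p under 0.05 and 9.19% had groups that did not overlap, and the list counts stand beside these shares. Of 16 tested genes for protein partners of MECOM or PRDM16, 7 were above 0 and 9 below, with a median of -0.020 and 2 at an unadjusted p under 0.05, and Pparg had no row. The smallest p-values were those of Skil, of Cebpb, which works with PRDM16 in brown fat (log2 fold change -0.57, SE 0.24), and of the deacetylase gene Hdac1 (-0.25, SE 0.15). Of 20 genes reported as regulated by MECOM or EVI1, 6 were above 0 and 14 below, with a median of -0.058 and 3 at an unadjusted p under 0.05. Among these were the repressor gene Gfi1b (-0.41, SE 0.18) and Setbp1, a gene activated in myeloid leukaemia (-0.42, SE 0.18). Setbp1 was at 1.26 ± 0.117 TPM in MecomWT:R751W and 2.03 ± 0.0583 TPM in WT. The groups did not overlap for 5 of the 20 genes, 1 higher and 4 lower in MecomWT:R751W, with Gfi1b and Setbp1 among the lower ones.

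Of 8 genes listed as downstream of PRDM16, 1 was above 0 and 7 below, beside 49% of all genes above 0, with a median of -0.222. An unadjusted p under 0.05 was found for 3, beside 5.97% of all genes, among them Hes1 and Cebpb. Hes1, a repressor induced by Notch, had 6.66, 4.14 and 2.20 TPM in MecomWT:R751W and 35.4, 12.8 and 5.86 TPM in WT (log2 fold change -1.59, SE 0.47, adjusted p = 0.519 by limma). WT replicate 1 stands far above the others, and the groups overlap. Of 15 tested SET domain methyltransferase genes of lysines 4 and 9 of histone H3, the enzymes whose domain the PR domain resembles, 9 were above 0 and 6 below with a median of 0.010, and 0 had an unadjusted p under 0.05. The members with the smallest p were Setd1b (-0.09), Suv39h1 (0.09) and Setd1a (-0.07). Of 14 other zinc finger factors of blood stem cells, 4 were above 0 and 10 below, beside 49% of all genes above 0, with a median of -0.259. An unadjusted p under 0.05 was found for 5, beside 5.97% of all genes, led by Gfi1 (0.79, SE 0.18), Egr1 (-1.08, SE 0.30) and Klf2 (-0.97, SE 0.27). For Egr1 and Klf2 the groups overlap, and replicate 1 was the highest of its genotype in each group. Gfi1 was the 1 gene of this list wholly higher in MecomWT:R751W, and 3 were wholly lower, beside 4.5% and 4.7% of all genes tested.

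The coding genes whose values followed Mecom most closely over the 6 libraries were Srp19, Nol11, Usp24 and Galnt11. The measure was the root mean square difference between centred log2(TPM + 1) values, which was 0.030 to 0.048 for these 4 and had a median of 0.18 over the 8476 genes compared. Srp19, a protein of the signal recognition particle, had 56.4, 46.3 and 50.9 TPM in MecomWT:R751W and 48.1, 39.5 and 40.2 TPM in WT, the same order of libraries within each genotype as Mecom. For Prdm16 the closest genes were Mcts1, Plaat3, Hs1bp3 and Flot1, at 0.041 to 0.044. Between Mecom and Prdm16 the difference was 0.269, and Prdm16 ranked 7425 of 8476 by closeness to Mecom. All of these genes share the 6 libraries, and the matches are a description.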

How the data were processed

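RNA of sorted SLAM-LSK cells was compared between 3 MecomWT:R751W and 3 WT libraries, grouped by their titles. The authors deposited 1 table of TPM with 1 column per library and no pooling. The build mm10 is named per the submitters' processing notes, and no source used here names the aligner, counter, strand setting or annotation. Per the labels' protocols kits differ by RNA input, and the one for these cells is not named. All 18465 symbols matched RefSeq genes of GRCm38.p6.

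The test was limma (3.58.1, run in R 4.3.3), fitted to log2(TPM + 1) with genotype as its term and a trend of variance on level, two-sided. It covered the 16655 genes that averaged 1 TPM or more. The fit was also run on simulated data with independent noise per gene and changes larger than those of the PRDM genes. That run does not cover changes as small as theirs or shifts shared by a whole library. Single values were compared by exact permutation (scipy 1.17.1). Whole reads were implied from the ratios of TPM within a gene for 100.0% of genes within 0.001 reads, and the same steps recovered 98.29% of genes exactly in simulated tables. Intervals of reads cover counting error only. The members, lists and tests were chosen with earlier results of these data known. Rescaled values of single libraries, counts of lowest values, scans of the start windows, rows inside the genes, and the exact tests of Prdm11 and of the sum without Mecom were added after values had been seen. Genes outside the family were named as the 3 of smallest unadjusted p per list, and as the 4 most alike. Same-numbered libraries were not treated as pairs. The values of some genes that this rule names are not shown.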

Additional observations from a re-analysis of the deposited data

How the results depend on the processing

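Of the 8 PRDM genes, 0 passed the adjusted threshold of limma in any of 17 other settings, of which the filter at a mean of 5 TPM tested 6 genes, without Prdm9 and Prdm10, and in which adjusted p-values ran from 0.204 to 1.0. At an unadjusted p under 0.05 Mecom alone passed, in 5 settings: rescaled coding rows, median centring, array weights, the replicate block and limma-voom. On rescaled coding rows 11% of genes tested had such a p, beside 5.97% in the main fit. The share for the other settings is not given here, so these passes cannot be set against it. The counts over all genes did move. In place of 0, limma called 2 with a mean of at least 5 TPM, 132 over coding rows, 17 over rescaled coding rows, 1 with array weights, 50 with voom, and 0 to 13 without 1 library. The cause was not tested.

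Mecom kept its sign in all 17 settings (0.137 to 0.312) and Prdm16 in all 17 (-0.29 to -0.079). Prdm2 ranged from -0.102 to 0.009 and Prdm15 from -0.029 to 0.17 when 1 library was left out, so their signs are not determined. The log2 ratio of Mecom to Prdm16 differed between MecomWT:R751W and WT by 0.327 to 0.572 without 1 library. The summed level differed by -3.68 to 7.66 TPM without 1 library, and by -0.081 as a mean of log2(TPM + 1). Every replicate number correlated best with its own number in the other genotype, at 0.14, 0.089 and 0.083 over genes. The coding share of TPM was 29.7%, 26.0% and 28.9% in MecomWT:R751W replicates 1, 2 and 3. In WT replicates 1, 2 and 3 it was 30.1%, 25.9% and 28.9%. Implied reads were fewest in replicate 2 and most in replicate 3 of each genotype. These are hints that replicate number is a shared factor, and not a stated pairing. With the replicate block Mecom stood at 0.228 (adjusted p = 0.44 by limma), with an SE of 0.071 in place of 0.139. The difference in the log2 ratio was then 0.46 (exact sign-flip p = 0.25), and the difference in the sum was 1.29 TPM (exact sign-flip p = 0.75).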
